A study of Mus musculus with 6 samples.

Results

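The genes described here are 31 genes that type I interferon induces or that sense RNA in the cytosol, taken by symbol from the 24063 gene symbols of the table. All 31 were in the table and all passed the filter on low counts. They fall into 10 sensors, 4 signalling and feedback genes and 17 effectors. RNA was sequenced from 6 libraries of LSK cells of mouse bone marrow, sorted as lineage-negative cells with Kit and Sca1 at their surface, a population of blood stem cells and early progenitors. The 3 libraries labelled knockout came from Arid2fl/fl:MxCre+ mice and the 3 control libraries from MxCre+ mice, all on a strain background given as C57/BL6. Mice of both groups were injected with pIpC at 6 to 8 weeks of age, and their cells were sorted 6 weeks later. Arid2 encodes a subunit of the PBAF chromatin remodelling complex, and the comparison asks what its deletion changes in these cells.

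Type I interferons are secreted when cells detect foreign nucleic acid. RNA sensors such as MDA5 and RIG-I signal through the adaptor MAVS to switch on interferon genes, and interferon then acts through its receptor on its target genes. Several sensors are targets themselves, so the pathway can reinforce itself, and USP18 closes the loop by restraining the receptor. In bone marrow, interferon is known to drive resting stem cells into division. pIpC is a double-stranded RNA analogue that acts as an interferon inducer, and the MxCre transgene places Cre under the interferon-responsive promoter of Mx1, which is active in many cell types. Both groups therefore carry the transgene and had the injection, and no group without pIpC was analysed here.

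Nothing in the labels ties a library to an animal or litter, so p-values reflect library-to-library spread. That spread may be technical, except between control replicate 2 and the other controls, which differ in sex (below). The libraries held between 12408966 and 28185678 counted reads. Arid2 itself had 156 ± 6.2 CPM (counts scaled to the library size by TMM, as CPM; SD, n = 3) in the libraries labelled knockout and 155.8 ± 8.5 CPM in controls. A gene-level count cannot show loss of a floxed exon, so the groups are called by their labels. By Xist and Y-linked reads, the 3 libraries labelled knockout and control replicate 2 were female and control replicates 1 and 3 male. In a fit with a sex term, control replicate 2 is therefore the sole control that the knockout label is set against.

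Promoter sequences are shown first. The interferon-stimulated response element is a DNA motif known from promoters of interferon-induced genes. Members were chosen largely as such genes. A high share of members with a match therefore follows in part from that choice, and is given as a description. RefSeq promoters of the mm10 assembly (GRCm38.p6), from 250 bases before to 50 bases after the start, were found for 22 of the 31 members. The motif searched was GAAA, any 2 bases and GAAA again, on either strand, and overlapping matches were counted separately. It occurred in 13 of the 22 members, against 3.99% of 27025 symbols with a promoter and 3.44% of 32851 promoters. Of the 6 members that passed the test below, 5 had a promoter and 4 of these a match. Of the members that did not pass, 17 had a promoter and 9 of these a match. Ifit2 had no match in either of its promoters. The windows below, written 5′ to 3′ on the strand of the gene with the matches in capitals, show 4 members that rose and then 3 members that did not pass the test, so that the motif can be compared between them.
Bst2: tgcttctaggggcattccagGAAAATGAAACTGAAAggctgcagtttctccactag
Trim30a: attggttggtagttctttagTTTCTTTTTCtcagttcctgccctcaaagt
Stat2: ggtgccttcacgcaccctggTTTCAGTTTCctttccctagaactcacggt
Ifih1: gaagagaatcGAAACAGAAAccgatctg
Isg15: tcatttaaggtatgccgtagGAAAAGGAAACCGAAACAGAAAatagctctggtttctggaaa
Oas1a: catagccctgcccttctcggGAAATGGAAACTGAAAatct
Ifit1: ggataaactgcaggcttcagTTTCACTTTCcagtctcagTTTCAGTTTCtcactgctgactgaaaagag

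The Bst2 window lies at chr8:71537567-71537622 on the minus strand and holds 2 overlapping matches. The Trim30a window, at chr7:104465200-104465249 on the minus strand, holds 1 match, 26 bases before the start. Another Trim30a promoter, not printed, holds 1 match that begins 2 bases after its start (within chr7:104446104-104446133). The Stat2 window, at chr10:128270256-128270305 on the plus strand, holds 1 match that lies farther away, 212 bases before the start. The Ifih1 window, at chr2:62646206-62646233 on the minus strand, holds 1 match that begins 32 bases after the start. Isg15 holds 3 overlapping matches (chr4:156200855-156200916, minus strand), Oas1a 2 that overlap (chr5:120907526-120907565, minus strand) and Ifit1 2 that are apart (chr19:34640765-34640833, plus strand). A match thus occurred in the promoters of members that rose and of members that did not pass the test, and whether any of these stretches is bound in LSK cells was not measured.

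Between the groups, 6 of the 31 members rose in the libraries labelled knockout and 0 fell. Those that rose were the sensor genes Ifih1 and Dhx58, the signalling gene Stat2 and the effector genes Ifit2, Bst2 and Trim30a. Of all 13679 genes tested, 3.85% were higher and 4.58% lower by the same rule (edgeR quasi-likelihood test, Benjamini-Hochberg adjusted p under 0.05). At an unadjusted p under 0.05, edgeR had 12 members higher and 0 lower, against 12.2% and 12.7% of all genes. DESeq2 called 8 higher and 0 lower at an adjusted p under 0.05, against 6.09% and 6.11%. Leaving out knockout replicate 2 or 3 or control replicate 1 or 3 in turn, edgeR called 1, 1, 2 and 3 members higher, against 0.864%, 1.49%, 1.36% and 3.1% of all genes tested. The changes were small, from a 1.23-fold to a 1.48-fold level. The log2 fold change was positive for 25 of the 31 members, with a median of 0.25, against 49.6% of all genes tested, whose median was 0.00. In 10 members every library labelled knockout lay above every control, which 15.1% of all genes tested also showed, and in 0 members every one lay below, against 16.1%. The plot of log2 fold changes by role shows that some members that did not pass had larger estimates than those that rose, with wider intervals.

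**Figure D1:**
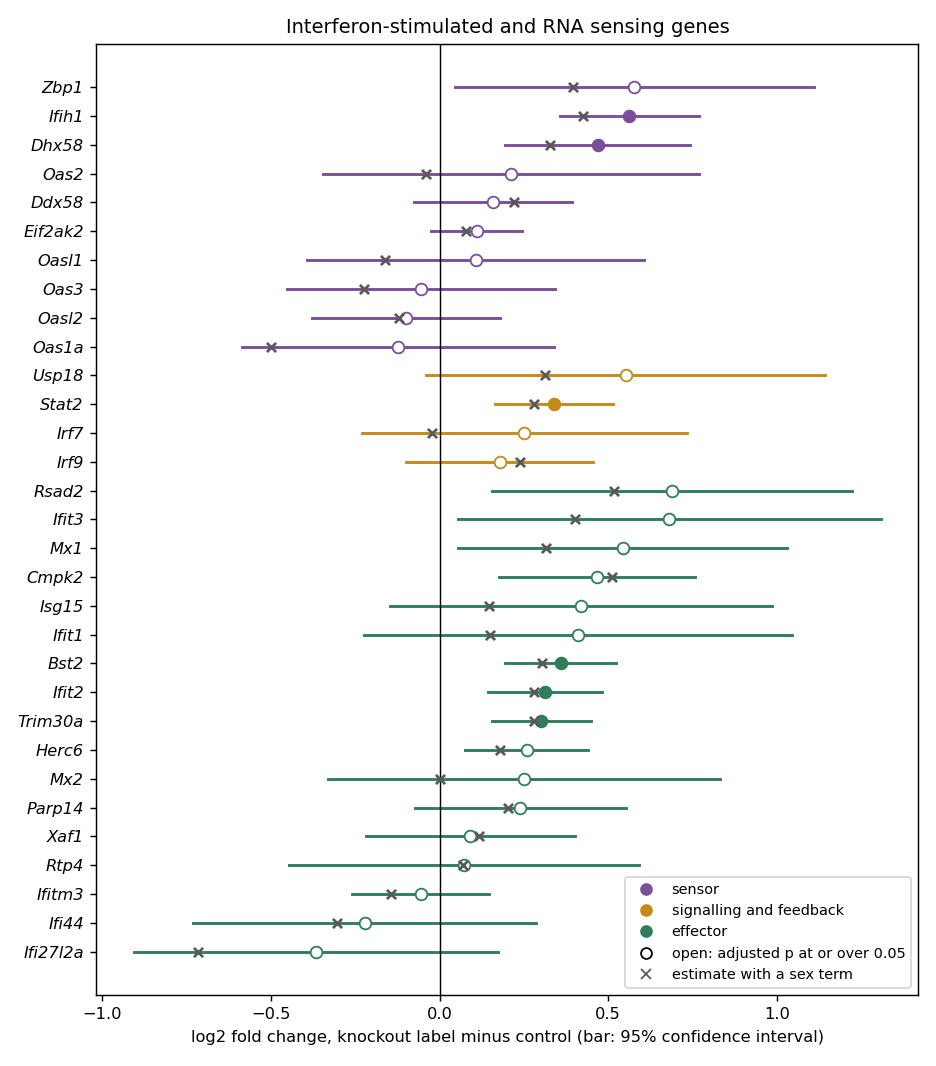
Log2 fold change of each of the 31 members, libraries labelled knockout minus control, grouped by role. Bars are 95% confidence intervals from edgeR, filled points have an adjusted p under 0.05, and crosses give the estimate with a sex term. The 6 filled points lie between 0.30 and 0.56, while open points reach 0.69 with wider bars.

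With the sex term 0 members passed in either direction, as did 0.0512% of all genes upward and 0.263% downward, and 8 members had an unadjusted p under 0.05 in that edgeR fit, 6 higher and 2 lower (Oas1a and Ifi27l2a), against 5.41% and 6.53% of all genes. The median log2 fold change of the members was then 0.18, with 22 of 31 positive, against 51.4% of all genes. On log2 CPM, the libraries labelled knockout lay a median of 0.32 above the mean of the male controls and 0.18 above the female control over the 31 members. For all genes tested both medians were 0.00. How much of the difference goes with sex rests on that single female control.

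Among the sensors, the RIG-I-like receptors are helicases that survey the cytosol for viral RNA. Ifih1 (ENSMUSG00000026896, chromosome 2, 62595798 to 62646255, minus strand, mm10) encodes MDA5, which binds long double-stranded RNA, pIpC included. Its level was 66.85, 65.4 and 71.0 CPM in libraries labelled knockout 1 to 3 and 46.7, 50.4 and 40.2 CPM in controls 1 to 3. Every library labelled knockout lay above every control, with the female control the highest of its group. The group levels were 67.75 ± 2.9 against 45.7 ± 5.2 CPM (SD, n = 3 each), and the log2 fold change was 0.56 (SE 0.09, edgeR adjusted p = 0.0107). The sex term lowered it to 0.43 (edgeR adjusted p = 0.211). Ifih1 was the sole member called in all 6 fits that leave out a library, with adjusted p from 0.0132 to 0.0454.

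Dhx58 (ENSMUSG00000017830, chromosome 11, 100694884 to 100704271, minus strand) encodes LGP2, a helicase that lacks the signalling domains of its relatives and modulates them. It had 40.2, 50.9 and 48.1 CPM in the libraries labelled knockout and 34.2, 37.0 and 29.0 CPM in controls. The groups did not overlap, although knockout replicate 1 was nearer to the controls than the other libraries with its label. The log2 fold change was 0.47 (SE 0.12, edgeR adjusted p = 0.0483, n = 3 each). Once sex was modelled it was 0.33 (edgeR adjusted p = 0.489). The call was lost without knockout replicate 2 or 3 or control replicate 1 or 3, with edgeR adjusted p of 0.17, 0.12, 0.115 and 0.0875. It was also lost with upper-quartile scaling (edgeR adjusted p = 0.0527) and with limma-voom (adjusted p = 0.0581). Ddx58, which encodes RIG-I, the receptor for short RNA with a triphosphate end, did not pass. Its levels were 50.05, 57.2 and 66.45 CPM against 51.6, 49.6 and 54.3 CPM. The groups overlapped, since knockout replicate 1 lay among the controls, and the log2 fold change was 0.16 (95% confidence interval −0.08 to 0.39).

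The other sensors with a role outside that family did not pass the test. Zbp1, whose product binds left-handed double-stranded nucleic acid and can start cell death, had the highest log2 fold change of the sensors at 0.58 (SE 0.23, edgeR adjusted p = 0.166, n = 3 each). Its levels were 10.2, 16.5 and 19.5 CPM in the libraries labelled knockout and 8.85, 11.65 and 10.2 CPM in controls. Knockout replicates 2 and 3 stood above all controls and knockout replicate 1 did not. Without that library the log2 fold change was 0.81 and the edgeR adjusted p 0.0449, which follows in part from removing the lowest value of its group. Leaving out any other library gave edgeR adjusted p from 0.176 to 0.383. With the sex term the log2 fold change was 0.395. Eif2ak2, which encodes the kinase PKR that halts translation on binding double-stranded RNA, had 72.8 ± 1.2 against 67.4 ± 2.6 CPM. Its groups did not overlap, but the log2 fold change was 0.11 (95% confidence interval −0.03 to 0.25, edgeR adjusted p = 0.295).

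Active enzymes of the OAS family make short oligoadenylates on binding double-stranded RNA, which activate RNase L. None of the 5 OAS and OAS-like genes passed, and 3 of the 5 had a negative log2 fold change. The median was −0.05, with a range from −0.12 (Oas1a) to 0.21 (Oas2). With the sex term all 5 were negative, and those of Oas1a, Oas2, Oas3, Oasl1 and Oasl2 each changed sign in at least 1 fit with another design or without 1 library. Oas1a had 13.1, 18.2 and 15.8 CPM in the libraries labelled knockout and 15.3, 22.2 and 13.5 CPM in controls. The highest of the 6 was the female control, and knockout replicate 1 was the lowest. Its log2 fold change was −0.50 once sex was modelled (edgeR adjusted p = 0.393). In all 5 genes knockout replicate 1 had the lowest level of its group. Reads of Oas1a may be shared with near-identical copies of the gene, and the sources used here do not say how such reads were counted.

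Of the 4 signalling and feedback genes, 1 rose and all 4 had a positive log2 fold change, from 0.18 to 0.55. Stat2 (ENSMUSG00000040033, chromosome 10, 128270559 to 128292849, plus strand) encodes the transcription factor that type I interferon, and not interferon gamma, needs together with IRF9. Its levels were 79.6, 89.3 and 93.2 CPM against 65.2, 71.9 and 69.7 CPM, without overlap. The log2 fold change was 0.34 (SE 0.08, edgeR adjusted p = 0.0338, n = 3 each), falling to 0.28 (edgeR adjusted p = 0.393) once sex was modelled. The call was lost without knockout replicate 2 or 3 or control replicate 1 or 3, with edgeR adjusted p from 0.056 to 0.118.

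Its partner Irf9 did not pass, with 63.4, 87.9 and 79.5 CPM against 63.6, 65.3 and 75.5 CPM. Knockout replicate 1 had the lowest level of all 6 libraries, and the log2 fold change was 0.18 (95% confidence interval −0.10 to 0.46). Irf9 overlaps Rnf31 on the same strand, so reads of the pair may have been shared. Irf7, the factor that amplifies interferon alpha transcription, had 34.8 ± 9.0 against 29.1 ± 6.1 CPM. Its log2 fold change was 0.25 by group alone and −0.02 once sex was modelled (edgeR adjusted p = 0.51 and 0.986). Usp18 removes ISG15 from proteins and restrains the interferon receptor. It had 7.56, 10.8 and 12.8 CPM against 4.80, 8.32 and 7.92 CPM, so that knockout replicate 1 lay below the higher controls. Its log2 fold change of 0.55 did not pass (SE 0.26, edgeR adjusted p = 0.232). Of the other fits, only that with a term for the replicate number (the replicate block) called it (edgeR adjusted p = 0.0419).

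Of the 17 effectors, 3 rose, 0 fell and 14 did not pass, with 14 positive estimates and a median log2 fold change of 0.30. Bst2 (ENSMUSG00000046718, chromosome 8, 71534255 to 71537456, minus strand) encodes tetherin, which holds budding virus at the cell surface. It had 72.4, 83.2 and 77.0 CPM in the libraries labelled knockout and 57.7, 62.9 and 60.9 CPM in controls. The lowest library labelled knockout exceeded the highest control, and the log2 fold change was 0.36 (SE 0.07, edgeR adjusted p = 0.0239, n = 3 each). Modelling sex gave 0.30 (edgeR adjusted p = 0.335). The call was lost without knockout replicate 2 or 3 or control replicate 1 (edgeR adjusted p = 0.0925, 0.061 and 0.0842).

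Trim30a (ENSMUSG00000030921, chromosome 7, 104409025 to 104465193, minus strand) encodes a TRIM protein that dampens Toll-like receptor signalling. Its levels were 87.5, 88.6 and 91.3 CPM against 67.7, 73.5 and 75.8 CPM, so the libraries labelled knockout were nearly level with each other. The log2 fold change was 0.30 (SE 0.06, edgeR adjusted p = 0.0289), or 0.28 in the fit that models sex (edgeR adjusted p = 0.332). The call was lost without knockout replicate 1, 2 or 3 or control replicate 1, with edgeR adjusted p from 0.0716 to 0.0959. Ifit2 (ENSMUSG00000045932, chromosome 19, 34550694 to 34576419, plus strand) encodes a tetratricopeptide protein that limits translation of viral RNA. It had 46.1, 43.35 and 47.99 CPM against 37.1, 37.7 and 35.7 CPM, again without overlap. Its log2 fold change was 0.31 (SE 0.07, edgeR adjusted p = 0.0395). In the fit that models sex it was 0.28 (edgeR adjusted p = 0.383). The call was lost whichever of the 6 libraries was left out, with edgeR adjusted p of 0.0858 without knockout replicate 2, 0.111 and 0.113 without knockout replicates 1 and 3, and 0.0975, 0.06335 and 0.08 without control replicates 1 to 3.

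**Figure D2:**
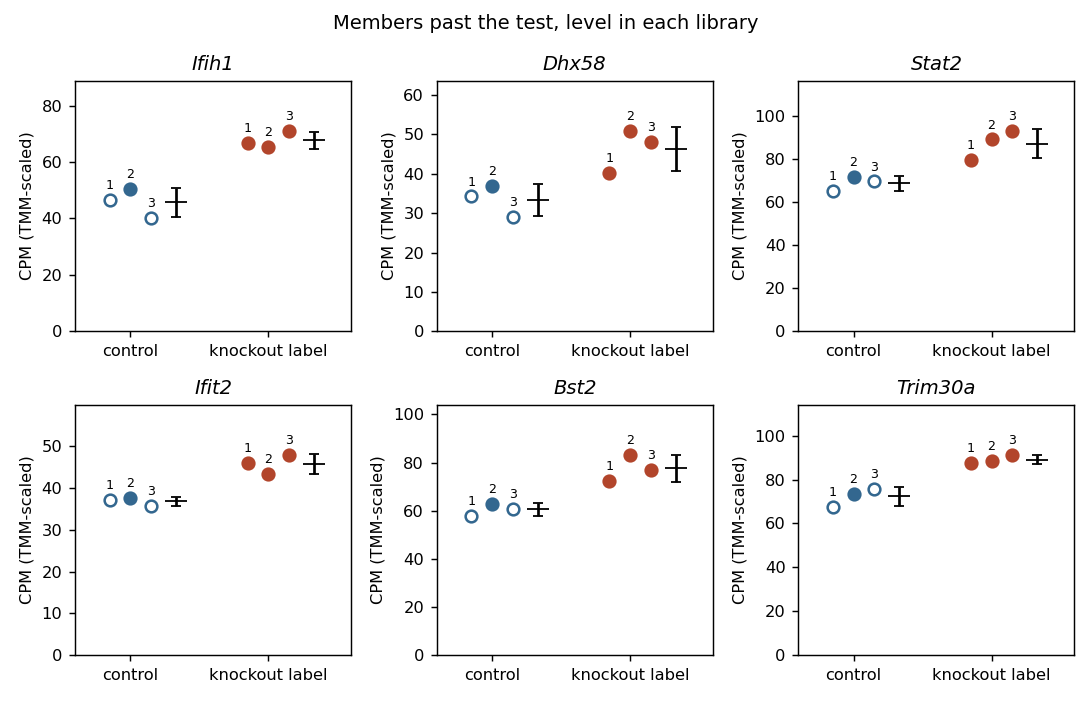
Level of the 6 members that rose, in CPM after TMM scaling, in each library. Filled points are female and open points male libraries, numbers are replicates, and the bars beside them give the mean and SD of 3 libraries. In each of the 6 genes the lowest library labelled knockout lies above the highest control.

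The neighbouring effector genes Rsad2 and Cmpk2 on chromosome 12 passed with DESeq2. With edgeR by group alone on all 6 libraries, after the filter on low counts, neither passed. Rsad2 encodes viperin, which makes a chain-terminating nucleotide, and Cmpk2 the kinase that supplies its substrate. Cmpk2 had 41.1, 48.7 and 52.2 CPM in the libraries labelled knockout and 39.8, 33.2 and 29.7 CPM in controls, without overlap. Its log2 fold change was 0.47 (SE 0.13, edgeR adjusted p = 0.0593; DESeq2 adjusted p = 0.0113) and was 0.51 once sex was modelled (edgeR adjusted p = 0.375). Cmpk2 also passed in edgeR with no filter on low counts, with the replicate block and without control replicate 1 (adjusted p = 0.0218, 0.0452 and 0.0499). It did not pass in edgeR with DESeq2 size factors or upper-quartile scaling (adjusted p = 0.0566 and 0.0629), or with limma-voom (adjusted p = 0.0559). Leaving out any other library gave edgeR adjusted p from 0.0622 to 0.175. Rsad2 had 11.6, 16.6 and 21.99 CPM against 10.8, 11.6 and 8.33 CPM. Knockout replicate 3 stood highest and knockout replicate 1 lay within the controls, and the log2 fold change was 0.69, the highest of all members (SE 0.23, edgeR adjusted p = 0.109; DESeq2 adjusted p = 0.0307).

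Mx1, whose promoter drives the Cre, encodes a dynamin-like GTPase against influenza viruses and is defective in many inbred laboratory strains. Its levels were 13.2, 21.3 and 19.4 CPM in the libraries labelled knockout and 12.9, 14.5 and 9.44 CPM in controls. Knockout replicate 1 lay between the controls, and the log2 fold change of 0.54 did not pass (SE 0.21, edgeR adjusted p = 0.156; 0.32 with the sex term). The other members of the IFIT and Mx families had log2 fold changes of 0.25 (Mx2), 0.41 (Ifit1) and 0.68 (Ifit3). The ISG15 pathway, which tags proteins with a ubiquitin-like modifier, was represented by Isg15 itself and by Herc6, the ligase that attaches it in mice. Neither passed, with log2 fold changes of 0.42 and 0.26 and edgeR adjusted p of 0.341 and 0.0842. Herc6 was called with the replicate block alone (edgeR adjusted p = 0.0498).

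The abundant membrane effector Ifitm3, which blocks virus entry through endosomes, did not pass. Its levels were 130.3, 161.8 and 144.4 CPM against 141.8, 160.9 and 151.1 CPM, with full overlap and a log2 fold change of −0.06 (95% confidence interval −0.26 to 0.15). Ifi27l2a, which encodes a small interferon-induced membrane protein, had the lowest estimate of all members, −0.37 (95% confidence interval −0.91 to 0.17, edgeR adjusted p = 0.383). It was −0.72 once sex was modelled (edgeR adjusted p = 0.378) and −0.13 without control replicate 2. It had 9.30, 16.2 and 12.1 CPM against 14.75, 20.7 and 12.95 CPM, with knockout replicate 1 the lowest and the female control the highest of the 6. Of the remaining effectors Ifi44 had −0.22, Rtp4 0.07, Xaf1 0.09 and the ADP-ribosyltransferase gene Parp14 0.24. Rtp4 overlaps Masp1 and Irf7 overlaps Phrf1, each on the opposite strand, and the sources used here do not say whether counting used strand.

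Per kilobase of exon (GENCODE M21), Ifitm3 had the highest level of the members, with 214.6 CPM per kilobase in the libraries labelled knockout and 223 in controls. Bst2 followed with 85.9 and 67.0, Ifi27l2a with 27.1 and 34.9 and Trim30a with 21.7 and 17.6 CPM per kilobase. The RIG-I-like receptors ranged on that scale from 8.21 (Ddx58) to 14.2 (Dhx58) in the libraries labelled knockout and from 5.60 (Ifih1) to 10.2 (Dhx58) in controls. Mx2 and Ifi44, at 0.984 and 1.33 CPM per kilobase in controls, were the lowest. The interferon genes themselves were all but silent. Of 20 interferon alpha, beta, epsilon, kappa, zeta and lambda symbols, 12 had no read and the rest summed to between 0 and 6 reads per library, too few to test.

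The 3 libraries labelled knockout did not carry the members at one level. Knockout replicate 1 had the lowest level of its group in 28 of the 31 members, while 35.4% of all genes tested were lowest there. It exceeded every control in 10 members, and knockout replicates 2 and 3 in 26 and 25, where 31.4%, 29.1% and 31.75% of all genes tested did so. The median deviation of the members from their 6-library mean, on log2 CPM, was −0.18 in knockout replicate 1, 0.28 and 0.27 in knockout replicates 2 and 3, and −0.16, −0.02 and −0.20 in controls 1 to 3. The median of all genes tested stayed within 0.01 of its mean in each library. Among controls, the female replicate 2 was the highest in 23 of 31 members, against 30.2% of all genes tested.

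In the 25 members that did not pass the test, knockout replicate 1 lay below the highest control in 21, and its median deviation was −0.23. In the 6 that rose it lay above every control and its median deviation was 0.10. That separation follows in part from the test, which favours genes without overlap, and is given as a description. Without knockout replicate 1 the median log2 fold change of the members was 0.395 and 5 were called higher, against 1.93% of all genes tested. In that fit 19 had an unadjusted p under 0.05 in edgeR and a positive log2 fold change, against 9.98% of all genes.

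**Figure D3:**
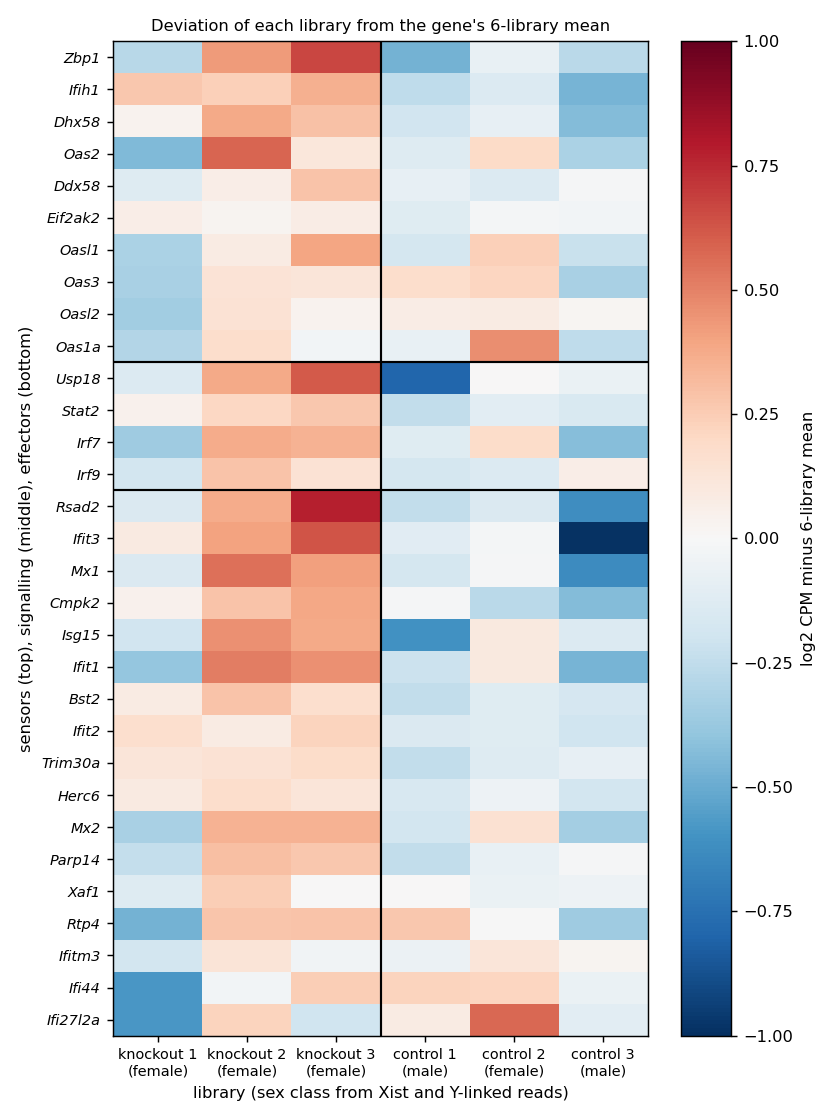
Deviation of each library from the 6-library mean of each member, in log2 CPM, with members as rows ordered by role and log2 fold change and libraries as columns. Red is above and blue below the mean. The column of knockout replicate 1 is mostly blue, with a median of −0.18, whereas knockout replicates 2 and 3 are mostly red, with medians of 0.28 and 0.27.

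Markers of other cells moved between the same groups. Of 15 monocyte and macrophage genes 8 were higher and 0 lower, and their summed level was 3104 to 3508 CPM in the libraries labelled knockout against 1714 to 2269 CPM in controls. Of 12 mature neutrophil genes 5 were higher and 0 lower, with sums of 7190 to 9211 against 2979 to 5755 CPM. Erythroblast genes had 6 of 11 higher and overlapping sums of 345 to 762.6 against 278.9 to 596.6 CPM, where Hba-a1 and Hba-a2 share 1 set of counts. Genes of the LSK gate and early progenitors had 6 of 13 lower and 0 higher, with sums of 2549.8 to 2716 against 3006 to 3588 CPM. Of the genes of the gate itself, Ly6a, which encodes Sca1, was lower (log2 fold change −0.56, edgeR adjusted p = 0.0378). Kit did not pass (−0.34, edgeR adjusted p = 0.0814). With the sex term 0 genes of these 4 lists passed. Their part in the differences of the interferon genes was not tested, and in sorted bulk cells a change in the share of cells cannot be told apart from a change in RNA per cell.

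Knockout replicate 1, the lowest of its group in most members, had the highest neutrophil sum of all libraries (9211 CPM). It also had the highest sums of B and plasma cell genes (840.1 CPM) and of T and NK cell genes (327.8 CPM). Its monocyte and macrophage sum (3104 CPM) and its erythroblast sum (345 CPM) were the lowest of its group, the former still above every control. Plasmacytoid dendritic cells, known as strong interferon producers, left few reads. Siglech, their surface lectin, had 5 to 28 reads per library and Klk1 0 to 3. Of the 8 genes tested on that list 1 was higher and 0 lower, and the sum, carried by Tcf4 and Runx2, was 209.8 to 230.4 CPM against 236.5 to 287.8 CPM. B and plasma cell genes had 1 lower and 0 higher of 9 tested, with sums of 632.2 to 840.1 against 464.7 to 714.4 CPM. Of these 9 genes 8 had a positive log2 fold change, with a median of 0.545, or 0.19 with the sex term. T and NK cell genes had 1 higher and 1 lower of 12 tested, with sums of 258.7 to 327.8 against 215 to 287.5 CPM. No gene on these 7 lists was at 0 in every library.

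The rest of the pathway was read from 6 lists outside the members, of which 99 genes were tested. In these, 11 were higher and 1 lower by group alone, beside the 3.85% and 4.58% of all genes, and 0 passed with the sex term. DESeq2 called 15 higher and 6 lower, against 6.09% and 6.11% of all genes. In edgeR, leaving out knockout replicate 1, 2 or 3 or control replicate 1 in turn gave 6, 4, 5 and 4 calls. Of all genes, 3.85%, 2.1%, 3.64% and 3.39% were then called in either direction. None of the 12 genes of the receptor, its kinases and inhibitors passed. The receptor chains Ifnar1 and Ifnar2 had 103 ± 6.2 against 95.6 ± 6.8 CPM and 146 ± 11.7 against 146.1 ± 4.8 CPM (SD, n = 3 each). Mavs, the adaptor of the RIG-I-like receptors, had 34.1 ± 3.4 against 34.8 ± 5.7 CPM.

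Of 21 adaptors and kinases of RNA and DNA sensing 3 were higher and 0 lower, with a median log2 fold change of 0.18. They were Ikbke, a kinase that phosphorylates interferon regulatory factors (116 ± 10.9 against 74.6 ± 14.98 CPM, log2 fold change 0.63), Myd88, the adaptor of Toll-like receptors (0.34), and Mb21d1, which encodes the DNA sensor cGAS (0.26). Of 10 interferon regulatory factors and their partners Irf5 alone was higher (80.3 ± 8.6 against 60.5 ± 2.1 CPM, log2 fold change 0.41). Of 11 genes of RNA editing and nucleic acid clearance 2 were higher, Samhd1, which degrades deoxynucleotides (0.50), and the lysosomal nuclease gene Dnase2a (0.25). Their median was 0.01.

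Of 45 other interferon-stimulated genes tested 5 were higher and 1 lower in edgeR, with a median log2 fold change of 0.03. DESeq2 called 6 of them higher and 5 lower. Samd9l, a brake on the growth of blood progenitors, had 101 ± 6.3 against 69.8 ± 1.4 CPM. By group alone its log2 fold change was 0.53 and once sex was modelled 0.56 (edgeR adjusted p = 0.00457 and 0.0841). Slfn2, a Schlafen gene of immune cell quiescence, had 67.8 ± 3.9 against 35.9 ± 6.9 CPM (log2 fold change 0.91, or 0.68 once sex was modelled), and Slfn4 0.77. Znfx1, an RNA-binding helicase, had 0.55 and the nuclear body gene Sp100 0.41. Ifi27, of the same family as Ifi27l2a, fell by 0.71 on the log2 scale, from 59.5 ± 4.6 to 36.3 ± 7.0 CPM (edgeR adjusted p = 0.0181).

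**Figure D4:**
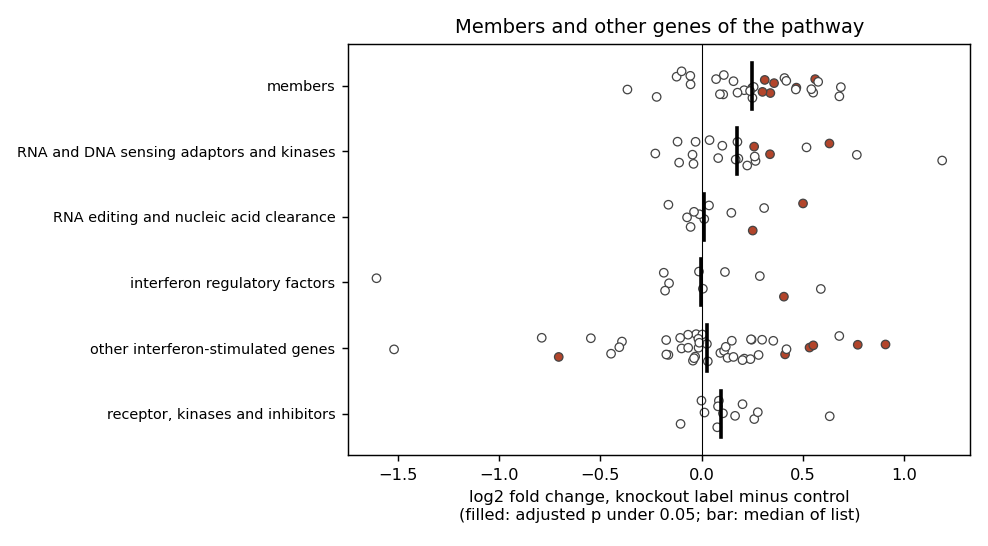
Log2 fold change, libraries labelled knockout minus control, of the members and of 5 lists of other pathway genes. Each point is a gene, filled where the edgeR adjusted p is under 0.05, and bars are medians. The median is 0.25 for the members and 0.18, 0.10, 0.03, 0.01 and 0.00 for the other lists.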

How the data were processed

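RNA of 6 LSK libraries was analysed from the table of raw counts deposited by the authors, with 1 row per gene symbol and whole numbers without normalization. The aligner STAR and the build mm10 come from the submitters' processing notes. The sources used here give no version, counting tool or strand setting. Per the labels' protocols, RNA was poly(A)-selected and the library kit was strand-specific. Pairs of libraries differed by at least 10.2 in chi-square per degree of freedom, so none repeated another.

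The test was that of edgeR 4.0.16, run in R 4.3.3 (filterByExpr with minimum count 10 and minimum total 15, TMM, quasi-likelihood F test, group as sole term), with Benjamini-Hochberg adjustment over 13679 symbols and a threshold of 0.05. CPM values are TMM-scaled. The code was tested on simulated counts. Positions and exon lengths came from GENCODE M21 (GRCm38), where all 31 members matched by symbol, and promoters from RefSeq (GRCm38.p6).

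The members, lists and tests were chosen with earlier results of these data known. Values in each library are given for members past the threshold by group alone, with the sex term or with DESeq2, for the highest and lowest log2 fold change of each role, and for the RIG-I-like receptors, Mx1 and Ifitm3. Of pathway genes, those past the threshold are named, with Ifnar1, Ifnar2 and Mavs; another gene of that rule is not reported here. Promoters of 3 other members are those with most matches before the start, with ties (Ifit3 had as many as Oas1a and Ifit1) broken by the lower log2 fold change. Alternatives were DESeq2 size factors, upper-quartile scaling, limma-voom (limma 3.58.1), DESeq2 1.42.0, no filter, a minimum of 1 CPM in 3 or more libraries, a replicate block, a sex term, female libraries alone, each library left out and an adjusted p under 0.1.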

Additional observations from a re-analysis of the deposited data

How the results depend on the processing

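The median log2 fold change of the members stayed positive in all 15 fits, from 0.166 without knockout replicate 2 to 0.395 without knockout replicate 1. It moved by less than 0.199, the SD of the members' median between libraries of a group. That SD is not far below the main median of 0.25, so the comparison does not show that the estimate is stable. With another scaling, filter or tool, 5 to 8 members were called higher, and 0 lower. With the sex term, and in female libraries alone, 0 members and 0 pathway genes were called, with 43 and 39 of all genes. Leaving out 1 library gave 1 to 5 members higher, 4 to 12 pathway genes and 290.0 to 984 of all genes. With DESeq2 21 pathway genes were called, 15 higher and 6 lower. At an adjusted p under 0.1 in edgeR 23 were called, with 2002 of all genes.

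Deviations of same-numbered libraries from their group means correlated at 0.26, −0.01 and 0.31 over genes for replicates 1, 2 and 3. Knockout replicate 1 correlated with control replicate 3 at −0.31, and knockout replicate 3 with control replicate 1 at −0.27. Whether the replicate numbers stand for a pairing of the libraries was not tested. With the replicate block 9 members, 29 pathway genes and 2172 of all genes were called.

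Members that changed sign passed in no fit. With the sex term and in female libraries alone, the log2 fold changes were −0.0392 and −0.0401 for Oas2, −0.161 and −0.165 for Oasl1 and −0.0225 and −0.0248 for Irf7, and Mx2 had −3.19e-05 in female libraries alone. Over the fits without 1 library, values ran from −0.264 to 0.136 for Oas1a, −0.0834 to 0.437 for Oas2, −0.205 to 0.0824 for Oas3, −0.0667 to 0.287 for Oasl1, −0.206 to 0.0351 for Oasl2, −0.14 to 0.019 for Ifitm3, −0.0705 to 0.286 for Rtp4 and −0.0235 to 0.174 for Xaf1. The causes were not tested. With 3 libraries a group, differences of members with few reads, such as Mx2, Ifit1 and Isg15, had standard errors of 0.25 to 0.28 on the log2 scale.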
